A study of Homo sapiens with 6 samples.

Results

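Transcript levels of 9 genes of plasminogen activation, the extracellular matrix and YAP or TGF-beta signalling were examined in MDA-MB-231 cells: THBS1, PLAU, PLAUR, PLAT, CCN1, CCN2, ANKRD1, TGFBI and TGFB1. They were picked by gene symbol from a table of 63241 genes, and each symbol matched 1 gene. MDA-MB-231 is an established human triple-negative breast cancer line of mesenchymal character. The 6 RNA-seq libraries came from 3 samples of non-treated control cells and 3 samples of cells given ArA, the arachidonic acid of the study's title, at 40 µM and kept in culture for 24 h. Both groups were the same line in DMEM with fetal bovine serum and antibiotics, and the labels name no vehicle for the controls. Nothing in the labels states that the replicates are separate cultures, so p-values reflect the spread among these 6 libraries, and that spread may be technical.

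Plasminogen activators are secreted proteases that turn plasminogen into plasmin, which digests fibrin and matrix. Urokinase (PLAU) works mostly at the cell surface, bound to its receptor PLAUR, while tissue-type activator (PLAT) works mostly on fibrin. Matricellular proteins such as THBS1, CCN1 and CCN2 are secreted into the matrix and signal to cells through integrins and other receptors. CCN1, CCN2 and ANKRD1 are widely used readouts of YAP and TAZ, coactivators that bind DNA through TEAD factors. TGFB1 is the cytokine that cells store in the matrix in latent form, THBS1 can activate it, and TGFBI is among its induced genes.

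All levels below are in TPM, transcripts of a gene per 1000000 transcripts of the library, which corrects for transcript length. TPM keeps no read totals, so depth is unknown. All 9 genes were above the filter, a mean of at least 1 TPM, that left 12999 genes for testing. Of markers expected in the line, vimentin (VIM) stood at 1335 to 1515 TPM. The keratins KRT8 and KRT18 stood at 343 to 439 TPM and 257 to 327 TPM. Luminal breast markers, 6 in all, were expected to be low. E-cadherin (CDH1) was listed at 0 to 0.17 TPM, the estrogen receptor gene ESR1 at 0 to 0.03 TPM and PGR at 0. The other 3 had means above 1 TPM: FOXA1 at 2.88 to 3.71 TPM, GATA3 at 3.07 to 4.36 TPM and EPCAM at 3.17 to 6.92 TPM. Summed levels of 5 endothelial markers were 0.77 to 1.13 TPM in the controls and 0.81 to 1.27 TPM after ArA, with CDH5 at most 0.07 TPM. The 4 platelet markers summed to 0.02 to 0.16 and 0.1 to 0.32 TPM, with PF4, PPBP and GP9 listed at 0 in every library. The 6 fibroblast and pericyte markers summed to 10.3 to 11.6 TPM in the controls and 9.61 to 13.7 TPM after ArA, nearly all of it COL1A1 and PDGFRB, with DCN at most 0.05 TPM. Of the 5 leukocyte markers, CD68 alone made up nearly the whole sum of 185 to 222 TPM in the controls and 218 to 268 TPM after ArA, and PTPRC was at most 0.15 TPM. Mitochondrially encoded transcripts took 31.6 to 32.9% of the TPM in control libraries and 32.1, 28.0 and 26.9% in ArA replicates 1, 2 and 3, and since TPM are shares, a smaller mitochondrial share raises all other values.

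The promoters of THBS1, CCN2 and ANKRD1 are shown because they hold the same TEAD letters while their transcripts, described below, did not follow one pattern over the libraries. That of PLAUR is shown for its AP-1 letters. The windows are the 250 bases before the RefSeq start site on GRCh38.p14, written 5′ to 3′ along each gene. Capitals mark matches to the TEAD letters CATTCC or their reverse complement GGAATG, to the AP-1 letters TGAGTCA or TGACTCA, and to the TATA box letters TATAAA, searched on both strands. THBS1 lies at chr15:39580829-39581078 on the forward strand. CCN2 lies at chr6:131951373-131951622, ANKRD1 at chr10:90921088-90921337 and PLAUR at chr19:43670170-43670419, all on the reverse strand. RefSeq and GENCODE v29 starts can differ. In GENCODE v29 the PLAUR gene reaches 43670547 and the ANKRD1 gene 90921276. The whole PLAUR window and part of the ANKRD1 window thus lie inside those genes.
THBS1: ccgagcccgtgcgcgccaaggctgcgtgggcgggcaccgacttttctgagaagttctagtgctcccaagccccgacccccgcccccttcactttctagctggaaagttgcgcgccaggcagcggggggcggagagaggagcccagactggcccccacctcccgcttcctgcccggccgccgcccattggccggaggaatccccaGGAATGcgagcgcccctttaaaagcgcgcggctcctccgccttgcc
CCN2: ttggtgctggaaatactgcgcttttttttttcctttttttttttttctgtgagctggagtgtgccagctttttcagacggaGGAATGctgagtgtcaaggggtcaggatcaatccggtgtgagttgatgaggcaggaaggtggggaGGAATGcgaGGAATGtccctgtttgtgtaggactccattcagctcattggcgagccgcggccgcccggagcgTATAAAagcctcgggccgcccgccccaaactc
ANKRD1: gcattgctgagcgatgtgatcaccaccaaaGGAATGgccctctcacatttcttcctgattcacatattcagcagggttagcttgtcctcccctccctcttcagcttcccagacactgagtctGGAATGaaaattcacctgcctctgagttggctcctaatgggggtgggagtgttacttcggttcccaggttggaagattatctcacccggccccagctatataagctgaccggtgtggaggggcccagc
PLAUR: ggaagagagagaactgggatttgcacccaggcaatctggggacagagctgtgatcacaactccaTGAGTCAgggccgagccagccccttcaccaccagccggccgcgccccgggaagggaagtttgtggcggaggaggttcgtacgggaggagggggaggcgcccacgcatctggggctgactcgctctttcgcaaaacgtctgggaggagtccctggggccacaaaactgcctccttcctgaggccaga
Windows were searched for 7 of the 9 genes, without CCN1 and PLAT. These genes had 8 windows, since PLAU has more than 1, so counts here are per gene and shares over all are per window. The TEAD letters occurred in 3 of these 7 genes and in 11.9% of 35116 RefSeq windows of the same length. The 9 genes were picked partly as YAP targets, and YAP acts through TEAD, so no excess can be read from this count. THBS1 held 1 match, ending 41 bases before the start site, CCN2 held 3 and ANKRD1 held 2. The AP-1 letters occurred in PLAUR only of these 7, and in 4.20% of all windows, and TATAAA occurred in CCN2 only of the 7, and in 10.7% of all windows. The SMAD letters CAGACA occurred in ANKRD1 only of the 7, and in 13.6% of all windows. No match overlapped a match of another motif. A match is a description of letters and not a measured binding site.

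By level, CCN1 was the leading gene of the 9 and 149th of the 12999 tested genes, with a mean of 834 TPM over the 6 libraries. PLAUR followed at 328 TPM, PLAU at 236 TPM and CCN2 at 173 TPM. These 4 stood in this order in each of the 6 libraries, with ranges that did not overlap between neighbours in either group. ANKRD1 (96.3 TPM), TGFBI (84.9 TPM), PLAT (80.3 TPM), TGFB1 (71.1 TPM) and THBS1 (64.2 TPM) came next by mean. From ANKRD1 to TGFB1, neighbours had overlapping ranges in both groups, and TGFB1 lay above THBS1 without overlap in control libraries only. THBS1, the lowest by mean, still ranked 1802nd of the tested genes. Transcripts of receptor and ligand of the urokinase pair were thus both abundant, whereas that of tissue-type activator was lower than that of urokinase in every library.

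**Figure D1:**
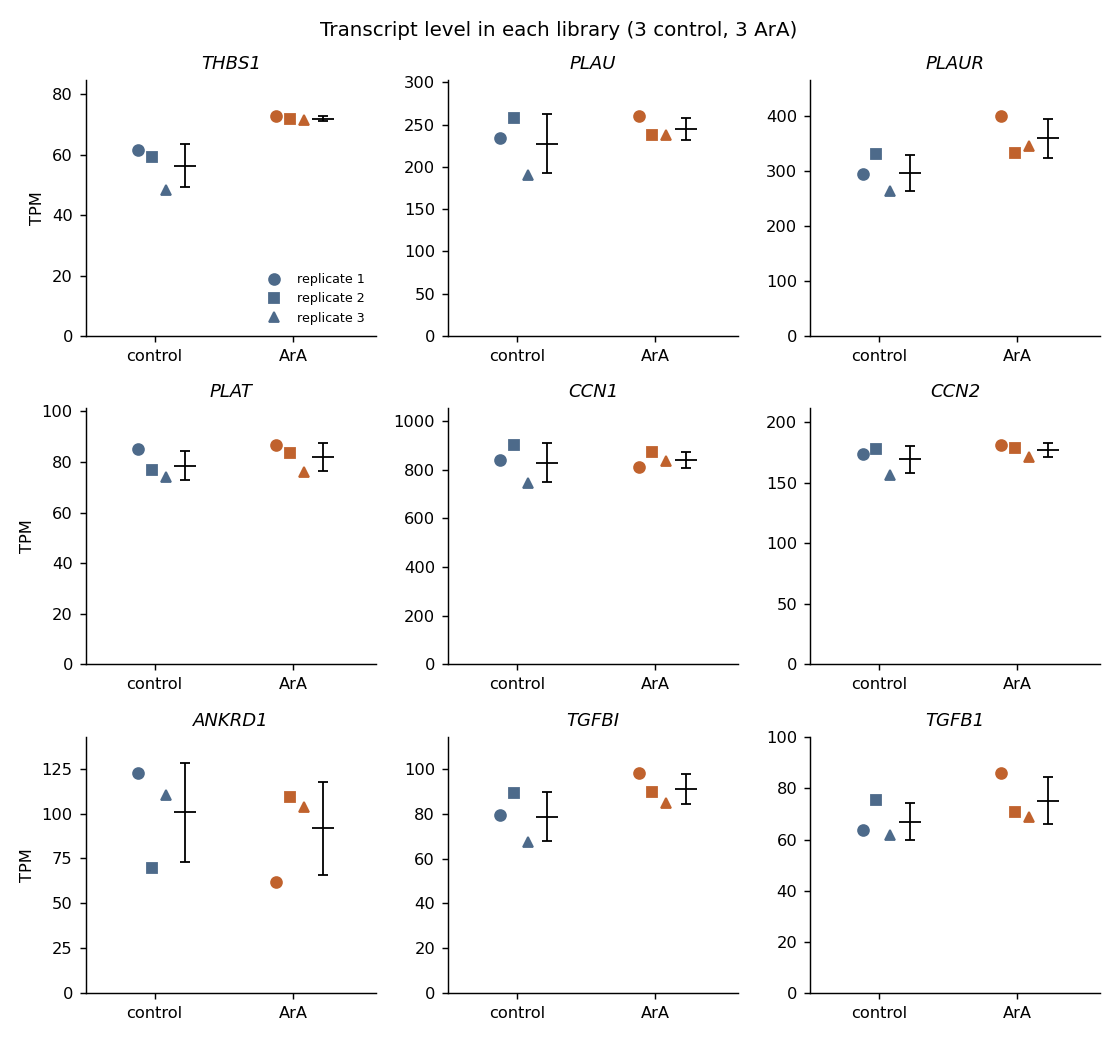
Level in TPM (vertical axis, from 0) of each of the 9 genes in the 3 control libraries (blue) and the 3 ArA libraries (orange). Symbols mark replicate numbers, and the bars beside them the mean and SD of each group. THBS1 and PLAUR have no overlap between groups, and ANKRD1 has 1 low library in each group.

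None of the 9 genes passed the test between ArA-treated and control cells, in which 0.0231% of all tested genes (3 of 12999) passed an adjusted p of 0.05. The test was limma on log2(TPM + 1), with Benjamini-Hochberg adjustment across the 12999 genes, and the adjusted p was 0.999 for each of the 9. At an unadjusted p under 0.05 there were 2 of the 9, THBS1 and PLAUR, beside 2.78% of all tested genes. For the same 2 genes every ArA value lay above every control value, a separation seen in that direction for 6.84% of all tested genes. Their exact 2-sided permutation p was 0.1 each, the smallest that 3 against 3 libraries can give, and it was 0.2 to 0.9 for the other 7. The log2 difference was positive for 8 of the 9 genes, with a median of 0.12, and for 7, 5 and 6 of them with median of ratios scaling, with quantile normalization and without mitochondrially encoded genes. The median of the 9 was 0.02 without control replicate 3, 0.07 without ArA replicate 1 and 0.21 without control replicate 2, and 0.06, 0.04 and 0.05 under those scalings. Among all tested genes 68.9% were positive, with a median of 0.06, and 53.2, 51.7 and 49.0% were positive under the 3 scalings. The median of all tested genes was 0.09 without control replicate 3, 0.12 without ArA replicate 1 and 0.01 without control replicate 2. In these 3 fits 77.7, 80.4 and 51.8% of all tested genes were positive. In bulk RNA, fewer cells of a kind and less RNA per cell cannot be told apart.

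THBS1, which encodes thrombospondin 1, had 61.6, 59.3 and 48.4 TPM in control replicates 1, 2 and 3 and 72.7, 71.9 and 71.4 TPM in ArA replicates 1, 2 and 3. The ArA libraries lay close together and above every control library, among which replicate 3 was the lowest. The means were 56.4 ± 7.02 and 72.0 ± 0.671 TPM (SD, n = 3 each), a 1.28-fold difference. On the log2 scale this was 0.35 (SE 0.11, 95% interval 0.10 to 0.61, limma unadjusted p = 0.0134). The difference was 0.29 after rescaling without the mitochondrially encoded genes and 0.25 without control replicate 3. With weights estimated for each library, the adjusted p was 0.0365 and the log2 difference 0.48, the only alternative of 20 in which a gene of the 9 passed. In that setting 1.65% of all tested genes passed (214 of 12999), and the weights ran from 0.219 for control replicate 2 to 7.59 for ArA replicate 2.

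PLAUR, the urokinase receptor, had 294, 330 and 264 TPM in the controls and 399, 333 and 346 TPM after ArA. The highest control value, in replicate 2, lay just under the lowest ArA value, also in replicate 2. The means were 296 ± 32.9 and 359 ± 35.1 TPM (SD, n = 3 each), a 1.21-fold difference. The log2 difference was 0.28 (SE 0.11, 95% interval 0.02 to 0.54, limma unadjusted p = 0.0391). It was 0.20 without control replicate 3, 0.20 without ArA replicate 1 and 0.22 when rescaled without mitochondrially encoded genes. In these 3 settings the limma unadjusted p was 0.133, 0.116 and 0.130, and with median of ratios scaling it was 0.233.

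PLAU itself, the protease that PLAUR binds, had 234, 258 and 190 TPM in the controls and 260, 237 and 238 TPM after ArA. The groups overlapped, with control replicate 2 just under ArA replicate 1. The log2 difference was 0.12 (SE 0.12, 95% interval -0.17 to 0.40), which bounds the fold between 0.889 and 1.32. It turned to -0.0078 without control replicate 3. PLAT had 84.9, 76.7 and 74.0 TPM in the controls and 86.8, 83.6 and 76.0 TPM after ArA, with a log2 difference of 0.06 (SE 0.09, 95% interval -0.16 to 0.29). Its fold was bounded between 0.897 and 1.22, and its sign turned under quantile normalization and on rescaling without mitochondrially encoded genes.

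The CCN genes differed little between the groups. CCN1 had 840, 902 and 743 TPM in the controls and 809, 873 and 835 TPM after ArA, so that both its highest and its lowest value were in control libraries. The log2 difference was 0.02 (SE 0.09), and the 95% interval of -0.19 to 0.23 bounds the fold between 0.877 and 1.18. The sign was negative under each of the 3 other scalings. CCN2 had 174, 177 and 156 TPM in the controls and 181, 179 and 171 TPM after ArA, which overlapped except for the low control replicate 3. Its log2 difference was 0.07 (SE 0.08, 95% interval -0.13 to 0.26), with the fold bounded between 0.917 and 1.20, and it turned to -0.00074 under quantile normalization.

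ANKRD1, an ankyrin repeat protein gene and a direct YAP readout, varied most among replicates. It had 122, 69.8 and 110 TPM in the controls and 62.1, 110 and 104 TPM after ArA. Control replicate 2 and ArA replicate 1 were low, and the other 4 libraries lay between 104 and 122 TPM. The coefficient of variation was 27.4% in control and 28.2% in ArA libraries, against 0.932 to 15.2% for the other 8 genes in either group. The log2 difference was -0.14 (SE 0.28, 95% interval -0.79 to 0.51), positive at 0.12 without ArA replicate 1, positive at 0.02 without control replicate 1 and -0.38 without control replicate 2. The interval holds folds from 0.579 to 1.43, the widest of the 9 genes.

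The TGF-beta genes both had overlapping groups. TGFBI, a secreted matrix protein named for its induction by TGF-beta, had 79.6, 89.5 and 67.3 TPM in the controls and 98.1, 89.8 and 85.1 TPM after ArA. Its log2 difference was 0.21 (SE 0.12, 95% interval -0.07 to 0.50, limma unadjusted p = 0.124), and it was 0.10 without control replicate 3. TGFB1 had 63.9, 75.3 and 61.7 TPM in the controls and 85.9, 70.7 and 69.0 TPM after ArA. Its difference of 0.16 (SE 0.12, 95% interval -0.13 to 0.45) was 0.07 without ArA replicate 1, the library that stood highest.

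**Figure D2:**
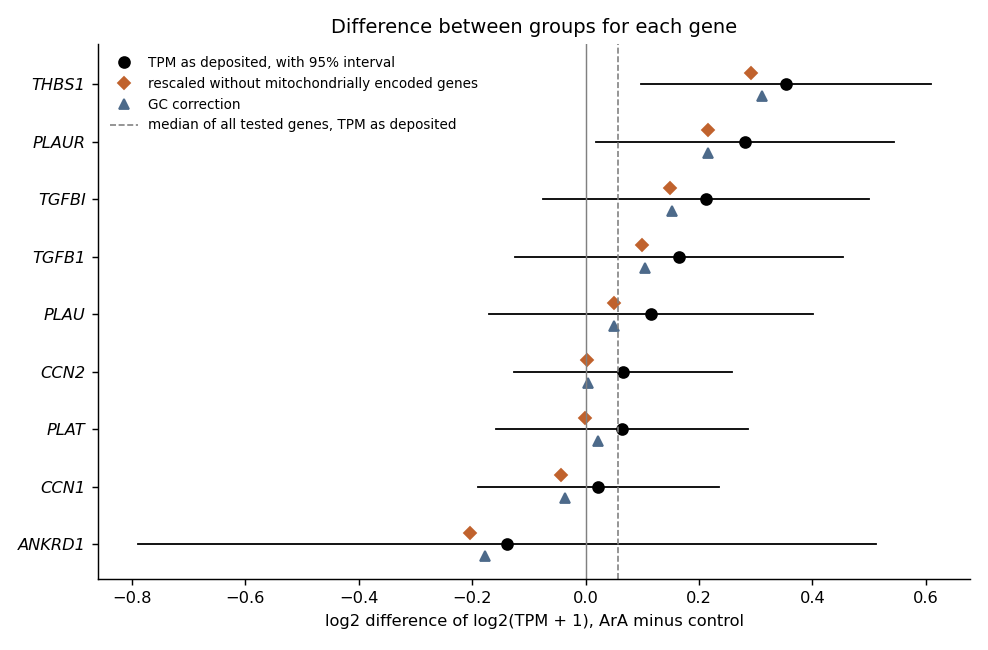
Log2 difference between ArA and control libraries (horizontal axis, ArA minus control) for each gene, with the 95% interval from limma (black), and the value after rescaling without mitochondrially encoded genes (diamonds) and after GC correction (triangles). Intervals exclude 0 for THBS1 and PLAUR before adjustment, and both alternatives lie below the black point for every gene.

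The spread of these genes followed particular libraries. Control replicate 3 held the lowest of the 6 values for 8 of the 9 genes, all except ANKRD1; of all tested genes, 12.5% had their lowest value in that library. ArA replicate 1 held the highest value for 7 of the 9, all except CCN1 and ANKRD1; of all tested genes, 12.4% had their highest value there. The libraries also differed in GC content: among the fifth of tested genes with the lowest GC content, the median deviation from the gene mean was -0.43 on the log2 scale in control replicate 2 and -0.30 in ArA replicate 1, against 0.12 to 0.21 in the other 4 libraries. The longest ANKRD1 transcript has 43.3% GC, the lowest of the 9 genes, and that of TGFB1 has 63.5%, the highest. After the trend with GC content had been subtracted from each library, ANKRD1 still deviated by -0.16 in control replicate 2 and -0.40 in ArA replicate 1, from -0.42 and -0.58 before. Control replicate 3 was then lowest for 7 of the 9 genes (18.7% of all genes) and ArA replicate 1 highest for 7 (21.0%). The log2 difference after this correction was 0.31 for THBS1 (limma unadjusted p = 0.0547) and 0.22 for PLAUR (limma unadjusted p = 0.0787).

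**Figure D3:**
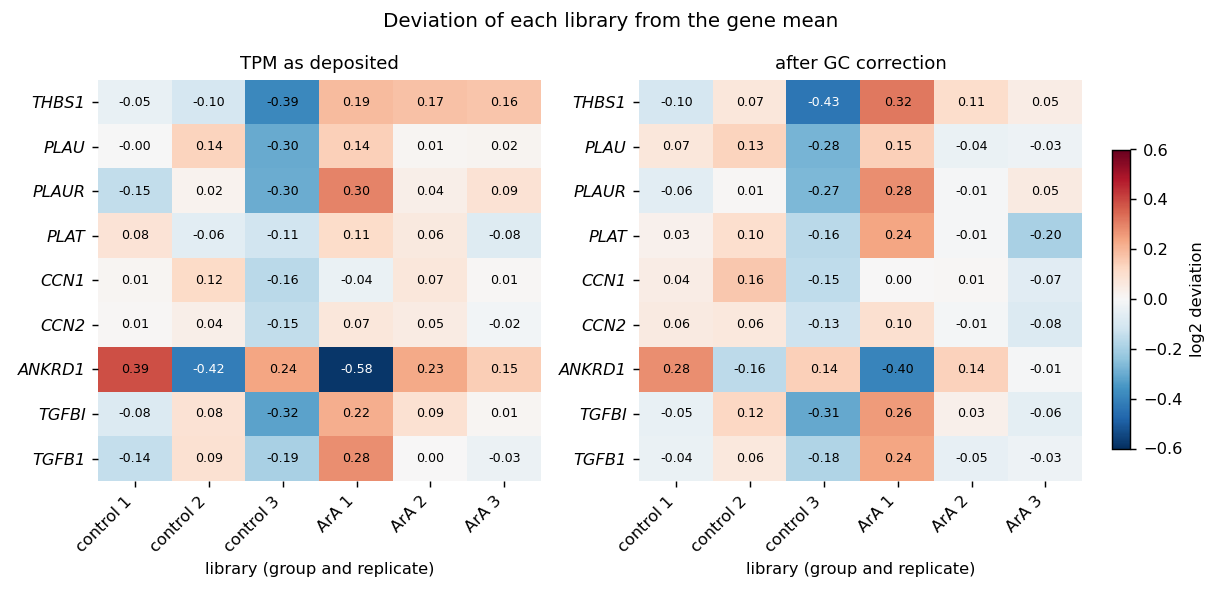
Log2 deviation of each library (columns) from the mean of each gene over the 6 libraries (rows), as deposited (left) and after GC correction (right), with red above and blue below the mean. Control replicate 3 is below the mean for all genes but ANKRD1, and the ANKRD1 row is lowest in control replicate 2 and ArA replicate 1.

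Over the 6 libraries, Pearson's r was positive for each of the 28 pairs among the other 8 genes and negative for each pair with ANKRD1. These correlations are a description, since the genes share the libraries and their GC trends. The share of positive r over all pairs of tested genes was not computed. Those 8 genes were all lowest in control replicate 3. ANKRD1 was lowest in control replicate 2 and ArA replicate 1, as were 39.2% of all tested genes. On log2(TPM + 1), r was lowest at 0.25 between PLAT and CCN1, and it was 0.95 between PLAU and CCN2, 0.94 between PLAUR and TGFBI, and 0.95 between CCN2 and TGFBI. For ANKRD1 it ran from -0.17 with PLAT to -0.90 with TGFB1. CCN1 and CCN2, which share a protein architecture and YAP as a regulator, had r = 0.77, whereas r between CCN2 and ANKRD1 was -0.50. GC correction kept every sign but moved several values: r for PLAT and CCN1 became 0.66, and r for ANKRD1 went from -0.26 to -0.69 with THBS1 and from -0.17 to -0.64 with PLAT. With TGFB1 it was then -0.86 and with CCN2 -0.49.

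Ratios of genes within a library do not depend on the mitochondrial share. Of the 36 ratios among the 9 genes, which are not independent of each other, 10 separated the groups, against 6.66% of all pairs of tested genes above 0 in every library. Of the 10, 8 held THBS1 or PLAUR, which separated the groups alone: such pairs with 1 separating gene did so in 8 of 14 cases here and in 21.3% of all such pairs. Of the 21 pairs among the other 7 genes, 2 did so, against 3.86%. PLAUR was 1.25, 1.28 and 1.39 times PLAU in control libraries and 1.54, 1.41 and 1.45 times in ArA libraries. The receptor transcript thus stood higher against that of its ligand in each ArA library. The gap was narrow, between 1.39 in control replicate 3 and 1.41 in ArA replicate 2, and protein was not measured here. CCN1 was 13.6, 15.2 and 15.4 times THBS1 in control libraries and 11.1, 12.1 and 11.7 times in ArA libraries. CCN2 over THBS1 also separated the groups, at 2.82, 2.99 and 3.22 in control and 2.49, 2.49 and 2.39 in ArA libraries. Such ratios show that 2 genes differed unequally, and the separated pairs were chosen after their values were seen.

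The genes most like 4 of the 9 over the 6 libraries were taken from 9141 others with a mean of at least 5 TPM. For THBS1 they were SGPL1 (r = 0.992), TGOLN2 (0.992) and APMAP (0.987). For PLAU they were DOLPP1 (r = 0.991), BID (0.986) and DERL1 (0.976). For CCN1 they were COL13A1 (r = 0.986), ABCC10 (0.983) and RNF220 (0.959), and for CCN2 they were BACE2 (r = 0.991), LRRC47 (0.986) and PCYOX1L (0.986). These r rest on 6 points, and values over 0.9 were not confined to the genes named. Of the 9141 genes compared, 172 had r over 0.9 with THBS1, 121 with PLAU, 94 with CCN2 and 16 with CCN1.

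The inhibitors, receptors and regulators around these genes were taken from 5 lists, none of which had a gene past the threshold in either direction. In plasminogen activation, 15 of 20 listed genes were tested and 14 were positive (13 with each of the other scalings), with a median log2 difference of 0.14. Of all tested genes 68.9% were positive, with a median of 0.06. The list median was 0.08 to 0.09 under the other scalings. It was 0.10 to 0.19 in the leave-one-out fits, with 12 to 14 positive genes. SERPINE2, an inhibitor of urokinase and thrombin, had 33.7, 28.8 and 27.9 TPM in the controls and 34.7, 35.3 and 38.4 TPM after ArA, without overlap. Such separation was seen in 6.84% of all tested genes. Its log2 difference was 0.26 (limma unadjusted p = 0.0462, adjusted p = 0.999). Under the 3 other scalings it was 0.19 to 0.21 (limma unadjusted p of 0.106 to 0.126). SERPINB2, a further urokinase inhibitor, was listed at 0 to 0.11 TPM and was not tested. ANXA2, which binds plasminogen and PLAT at the cell surface, was the most abundant listed gene, at 2207 ± 78.5 TPM in the controls and 2396 ± 157 TPM after ArA (SD, n = 3 each).

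Other matricellular genes were mostly low: 7 of 20 listed genes were tested, of which 5 were positive (3 with each of the other scalings), with a median of 0.02. Without ArA replicate 1 there were 3 positive genes with a median of -0.011, and without control replicate 2 the median was 0.12. SPARC, a collagen-binding matricellular protein and the most abundant of them, had 83.2 ± 11.9 and 83.4 ± 3.93 TPM, and CD47, a THBS1 receptor, had 69.4 ± 16.2 and 67.0 ± 9.98 TPM (SD, n = 3 each). CCN3, a relative of CCN1 and CCN2 named here after its value was seen, had 35.3, 26.3 and 29.4 TPM in the controls and 35.1, 38.3 and 42.1 TPM after ArA (limma unadjusted p = 0.0370).

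Of the YAP and TEAD pathway, all 18 listed genes were tested and 13 were positive (10 with each of the other scalings), with a median of 0.06, equal to that of all tested genes when rounded. Without control replicate 2 there were 8 positive genes with a median of -0.046, and in the other leave-one-out fits 9 to 17, with medians of 0.0055 to 0.15. YAP1 had 32.8, 21.8 and 33.1 TPM in the controls and 23.3, 31.0 and 33.8 TPM after ArA, lowest in the same 2 libraries as ANKRD1, as were 39.2% of all tested genes. WWTR1, which encodes TAZ, was the most abundant listed gene, at 40.1 ± 2.42 and 43.9 ± 3.77 TPM (SD, n = 3 each). Of 20 further YAP target genes 17 were positive (12 to 14 under the other scalings), with a median of 0.08. Without control replicate 2 there were 11 positive genes with a median of 0.011, and without ArA replicate 1 the median was 0.15. AMOTL2, a target that restrains YAP and stands in both lists, had 24.7, 24.4 and 25.2 TPM in the controls and 27.8, 30.1 and 28.0 TPM after ArA, without overlap (limma unadjusted p = 0.0565). Such separation was seen in 6.84% of all tested genes and in 3 of the 18 YAP and TEAD pathway genes. Under the 3 other scalings the AMOTL2 log2 difference was 0.13 to 0.15 (limma unadjusted p of 0.145 to 0.241). NT5E, the most abundant target listed, had 444 ± 106 and 487 ± 54.4 TPM, and RBMS3, named after its value was seen, had 2.75 ± 0.633 and 1.70 ± 0.349 TPM (SD, n = 3 each, limma unadjusted p = 0.0424).

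In the TGF-beta pathway 21 of 23 listed genes were tested and 16 were positive (14 or 15 in the rescaled data), with a median of 0.09, which was 0.03 without control replicate 2 and 0.16 without ArA replicate 1. LTBP1, which anchors latent TGF-beta in the matrix and is named after its value was seen, had 45.5, 44.1 and 41.4 TPM in the controls and 55.6, 53.5 and 54.3 TPM after ArA. Its groups did not overlap, and its log2 difference was 0.31 (SE 0.08, limma unadjusted p = 0.00661, adjusted p = 0.999). Such separation was seen in 6.84% of all tested genes and in 4 of the 21 tested here. The LTBP1 difference was 0.26 with median of ratios scaling, 0.24 with quantile normalization and 0.25 without mitochondrially encoded genes. In these settings the limma unadjusted p was 0.0730, 0.0485 and 0.0249. The receptor TGFBR2 was the most abundant listed gene, at 124 ± 17.4 and 135 ± 5.63 TPM, and its partner TGFBR1 had 7.67 ± 2.47 and 7.34 ± 1.11 TPM (SD, n = 3 each). The ligand TGFB2 had 16.0 ± 4.44 and 16.0 ± 1.90 TPM. The feedback inhibitors SMAD7, at 2.61 ± 0.751 and 2.90 ± 1.26 TPM, and PMEPA1, at 1.46 ± 0.218 and 1.52 ± 0.215 TPM, had overlapping groups. TGFB2, AMOTL2, LATS2 and F3 each stand in more than 1 list.

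**Figure D4:**
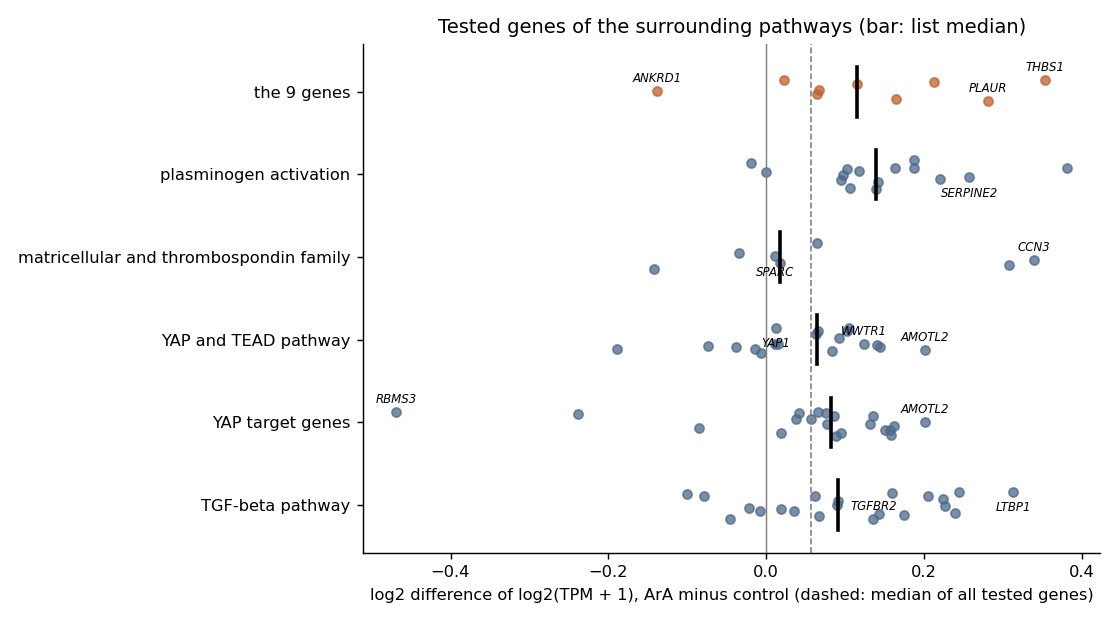
Log2 difference between ArA and control libraries (horizontal axis) for the 9 genes (orange) and the tested genes of 5 surrounding lists (blue), with vertical bars at list medians and a dashed line at the median of all tested genes, 0.06. Most points lie between -0.2 and 0.4, and none passed the adjusted threshold.

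In GENCODE v29 on hg38, all 9 are protein-coding genes. On the forward strand lie THBS1 (ENSG00000137801), on chromosome 15 from 39581079 to 39599466, PLAU (ENSG00000122861), on chromosome 10 from 73909177 to 73917497, CCN1 (ENSG00000142871), on chromosome 1 from 85580761 to 85583962, and TGFBI (ENSG00000120708), on chromosome 5 from 136028895 to 136063818. On the reverse strand lie PLAUR (ENSG00000011422), on chromosome 19 from 43646095 to 43670547, TGFB1 (ENSG00000105329), on chromosome 19 from 41301587 to 41353911, and CCN2 (ENSG00000118523), on chromosome 6 from 131948176 to 131951373. PLAT (ENSG00000104368), on chromosome 8 from 42175233 to 42207724, and ANKRD1 (ENSG00000148677), on chromosome 10 from 90912096 to 90921276, are also on the reverse strand. Whether reads were counted by strand is not given in the sources used here, so those where exons overlap a gene on the other strand may not be separated. C10orf55 covers 31.1% of PLAU exon bases and was at 0.42 to 0.60 TPM, and HNRNPUL1, at 126 to 151 TPM, covers 6.64% of TGFB1 exon bases. FSIP1 covers 4.89% of THBS1 exon bases and was at 0.02 to 1.09 TPM, and AL133346.1, not analysed here, covers 8.34% of those of CCN2.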

How the data were processed

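The authors deposited 1 table of TPM, 1 column per library, in which every column summed to 1000000 within rounding. Per the submitters' processing notes, the tools were HISAT2, StringTie and RSEM, with no versions, and the build was hg38. The annotation and the strand setting were not given in the sources used here. Of 63291 lines, 50 that name no gene were left out. Columns were matched to samples by title. Genes whose mean reached 1 TPM were tested on log2(TPM + 1) (pseudocount 1) by limma 3.58.1 under R 4.3.3 (lmFit and trended eBayes, with group as single term), 2-sided, adjusted by Benjamini-Hochberg over 12999 genes with a threshold of 0.05. Folds are ratios of mean TPM, and fold bounds come from the log2(TPM + 1) interval. The log2 scale with a pseudocount understates the change of low genes. The fit was also run on simulated data with independent noise and no shift shared by the genes of a library. That run therefore does not show how the fit behaves on these libraries. GC content came from the longest GENCODE v29 transcript, known for 97.2% of tested genes, and was fitted with a spline of 5 degrees of freedom.

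The 9 genes, the 5 lists (97 genes, all in the table) and the alternatives were chosen with earlier results of these data known. The naming rule took the 9 genes, 11 list genes by role, any list gene past the threshold (up to 3 per direction and list, of which there were none) and the most abundant gene of each list. It also took the 3 genes most correlated with each of THBS1, PLAU, CCN1 and CCN2. Genes overlapping a gene of the 9 and marker genes are named for those checks. One gene of the lists is not reported here. Promoter sequences are RefSeq windows.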

Additional observations from a re-analysis of the deposited data

How the results depend on the processing

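Over 20 alternatives, THBS1, PLAUR, TGFBI and TGFB1 kept a positive log2 difference, from 0.25 to 0.48, 0.20 to 0.36, 0.10 to 0.34 and 0.07 to 0.25. With library weights 1 gene of the 9 passed (THBS1, 0.48), beside 214 of all tested genes, and 7 of the 9 had an unadjusted p under 0.05 in limma, beside 24.5% of all tested genes (2.78% without weights). In that setting 1 gene of the YAP targets and 1 of the TGF-beta list passed, which were RBMS3 (-0.72) and LTBP1 (0.34). In every other alternative the count was 0 for the 9 genes and for each list. At an unadjusted p under 0.05 in limma, the count for the 9 was 0 with median of ratios scaling (259 of all 12981 tested) and with GC correction (515 of 12637), and 1 to 3 in the leave-one-out fits (215 to 720 of 12999). Quantile normalization left 5 of the 9 positive. The cause of these shifts was not tested. The median of all genes moved from 0.06 to 0.01 (median of ratios and quantile) and to -0.0031 (without mitochondrially encoded genes), and ran from 0.01 without control replicate 2 to 0.12 without ArA replicate 1 in the leave-one-out fits.

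Signs turned for genes near 0. CCN1 was -0.031 with median of ratios, -0.029 with quantile normalization, -0.043 without mitochondrially encoded genes and -0.036 with GC correction. PLAT was -0.0089 with quantile normalization and -0.00033 without mitochondrially encoded genes, and CCN2 was -0.00074 with quantile normalization. In the same order of the 4 settings given for CCN1, YAP1 was -0.039, -0.059, -0.052 and -0.026, SPARC was -0.041, -0.055, -0.053 and -0.036, and TGFB2 was -0.030, -0.041, -0.042 and -0.0067. PMEPA1 was -0.0034 without mitochondrially encoded genes, -0.17 with library weights, -0.030 with GC correction and -0.068 without both control replicate 2 and ArA replicate 1. YAP1 was -0.058 with library weights and -0.025 without those 2 libraries, where TGFB2 was -0.043.

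Leaving out 1 library at a time gave -0.0078 to 0.21 for PLAU, -0.053 to 0.086 for CCN1, -0.38 to 0.12 for ANKRD1, -0.22 to 0.12 for CD47, -0.18 to 0.16 for YAP1 and -0.11 to 0.22 for TGFB2. It gave -0.27 to 0.16 for TGFBR1, -0.16 to 0.26 for SMAD7, -0.025 to 0.11 for PMEPA1, -0.084 to 0.12 for SPARC and -0.029 to 0.32 for NT5E. Over all genes, 0 to 7 passed in these fits, 5 with GC correction and 12 without both control replicate 2 and ArA replicate 1, against 3.

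Before GC correction, same-numbered libraries did not deviate together (r = -0.16, -0.28 and 0.11 for numbers 1, 2 and 3). No library of the controls correlated best with its own number. These r hold the GC trends of the libraries, so they cannot decide whether the numbers are pairs. The main fit did not take them as pairs. With the replicate block, 0 of the 9 genes and 0 genes in all passed (232 at an unadjusted p under 0.05 in limma), and with GC correction and the block together CCN1, YAP1, SPARC, TGFB2 and PMEPA1 were -0.036, -0.026, -0.036, -0.0067 and -0.030. Depth is unknown, so the precision of low genes rests on replicate spread alone.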
